A study of Mus musculus with 12 samples.

Results

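Brown adipose tissue (BAT) was compared with white adipose tissue (WAT) in male mice that carry no functional copy of the clock gene Per2. The comparison rests on the 3 BAT and 3 WAT arrays labelled per2-/-, 6 of the 12 arrays of the series, chosen by their genotype and tissue labels. The other 6 arrays, 3 of WAT and 3 of BAT labelled per2+/+, served to say which depot differences were also there with Per2. They also entered the estimate of each gene's spread on which the p-values rest, and the choice of transcript for each gene. All mice were 20 weeks old, lived under cycles of 12 h light and 12 h dark, ate chow freely and were killed at the same time. The knockout allele, attributed to Bae and colleagues, is carried in the germline, so both tissues and all of their cells have it. The site of the white depot is not named in the labels, and whether WAT and BAT of the same replicate number came from 1 mouse is not stated. Where nothing more is said, p-values measure the spread between these biological replicates of a group. Of 35557 transcripts on the array, 28925 had been tested by the authors, and 19933 genes had a tested transcript naming that gene alone. Each value is an array intensity, and differences are given as BAT minus WAT on the scale log2(intensity + 16), where 1 is a doubling and the added constant makes differences of dim genes smaller than the ratio of their intensities.

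Brown adipocytes burn fatty acids and glucose in abundant mitochondria, and uncoupling protein 1 lets protons back across the inner membrane so that the energy leaves as heat. White adipocytes store triglyceride and secrete hormones such as leptin. The depots also differ in developmental origin, which is recorded in their Hox gene expression, and in the other cells they hold, such as the mesothelium that covers visceral white fat. Per2 is a repressor of the circadian transcription loop, and its protein has been described as binding nuclear receptors that act on fat genes. In a sample of whole tissue, fewer cells of a type and less RNA per cell cannot be told apart.

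The tissue labels were set beside their markers. Ucp1, Cidea and Otop1, which mark brown adipocytes, had at least 1541 units of intensity on every BAT array without Per2, and the white-adipocyte markers Agt and Nnat were above every BAT array on every WAT array without Per2. Otop1, Agt and Nnat were named by their differences in this same comparison, so their separation is no separate check. At a limma adjusted p under 0.05, 22 of 24 brown-fat thermogenic genes were higher in BAT and 0 lower. Of 22 white-adipocyte genes 16 were lower in BAT, 2 higher and 4 neither. Brown-fat markers were not near 0 in WAT without Per2: Ucp1 gave 2554, 2665 and 4449 there. Replicate 3 of WAT without Per2 stood apart. Its Spearman correlation with the other WAT arrays without Per2 was 0.954 to 0.956, while those correlated at 0.992 with each other, and its correlation with BAT without Per2 was 0.89 to 0.897 against 0.829 to 0.837 for them. List counts that moved by more than 1.5 times without this array are therefore given with and without it. Per2 itself gave 116, 108 and 172 in WAT and 138, 151 and 158 in BAT without Per2, against means of 112 ± 11.4 and 165 ± 8.22 (SD, n = 3) with Per2. No source used here says where its probes lie relative to the deleted segment, so this level does not check the genotype. Its depot difference was 0.18 (limma, adjusted p = 0.333) without Per2 and 0.50 (limma, adjusted p = 0.0112) with it, and the difference of these differences did not pass the test (adjusted p = 0.665).

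**Figure D1:**
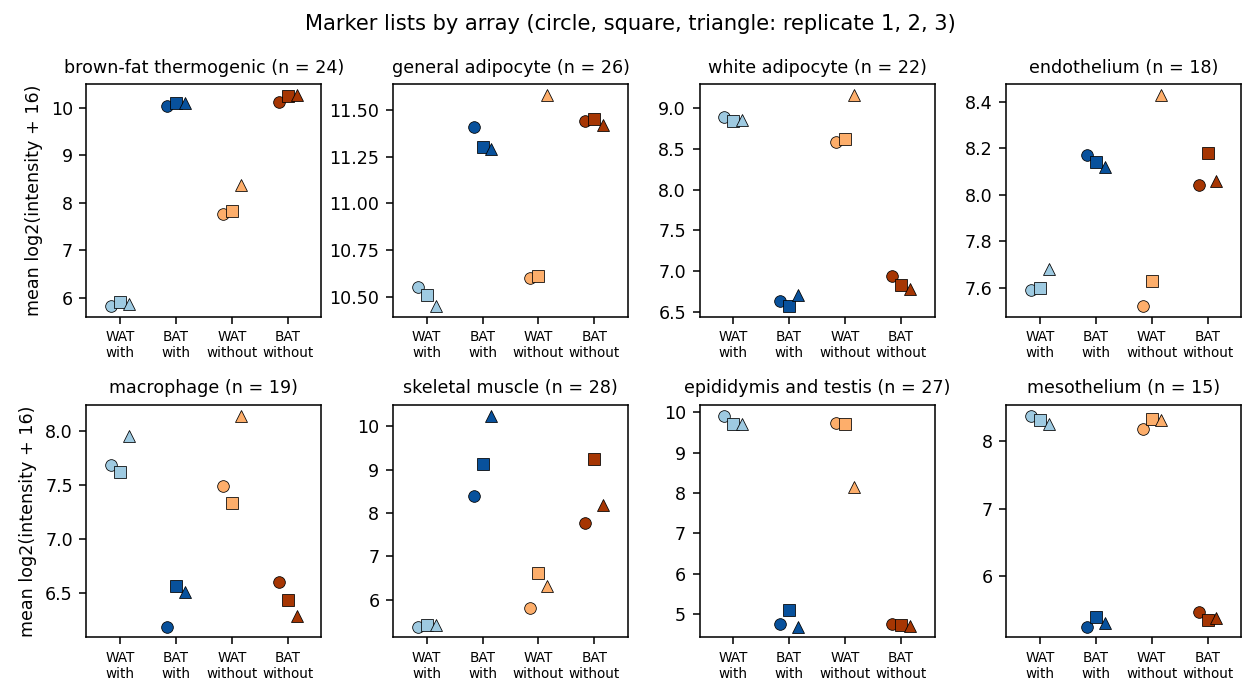
Mean log2(intensity + 16) of 8 marker lists on each of the 12 arrays, by tissue (WAT, BAT) and genotype (with or without Per2), with circle, square and triangle for replicates 1, 2 and 3. The triangle of WAT without Per2 lies nearest to BAT of its group in the brown-fat list and above BAT without Per2 in the general adipocyte and endothelial lists. It lies farthest from BAT of its group in the white adipocyte and macrophage lists, and lowest of its group in the epididymal list. All 3 WAT arrays without Per2 lie above WAT with Per2 in the brown-fat and skeletal-muscle lists.

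Without Per2, much of the transcriptome differed between the BAT and WAT samples. Of 19933 genes, 9373 (47.0%) differed between the depots at a limma adjusted p under 0.05, the threshold at which a gene is called here. BAT was higher for 4021 genes (20.2%) and lower for 5352 (26.8%). Without WAT replicate 3 the counts were 4233 and 5687, and 8693 genes had the same call as with all arrays. At 2-fold or more, 911 genes were higher (4.57%) and 2016 lower (10.1%). All 3 BAT arrays lay above all 3 WAT arrays for 25.6% of genes, and WAT above BAT for 30.1%. The balance of higher and lower calls rests on scaling. As deposited, WAT arrays without Per2 had median intensities of 81 to 88.3 and BAT arrays 67.4 to 68.4, the median log2 difference over all genes was 0.01, and 42.9% of calls were higher in BAT. With each array centred on its median log2 value the median difference became 0.28 and the share 73.4%, and with quantile normalization 0.13 and 61.6%. Gene groups are therefore set beside the median of 0.01, and those whose direction turned are named.

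The 10 largest rises in BAT ran from 3.07 to 3.22, and by the lists 4 are brown-fat thermogenic genes (Elovl3, Dio2, Otop1 and Acot11) and 2 skeletal muscle genes (Myh4 and Atp2a1). Serpina12, which encodes the adipokine vaspin, gave 12.3, 11.4 and 17.3 in WAT and 220.2, 248 and 318 in BAT, so no array of the groups overlapped and BAT was far above WAT (log2 difference 3.22 ± 0.40 SE, limma adjusted p = 5.21e-05). With Per2 its BAT arrays gave 15.6, 97.7 and 12.4, and the difference there, 0.77, did not pass the test (limma, adjusted p = 0.131). The difference between the genotypes did not pass either, at 2.44 (limma, adjusted p = 0.115). Elovl3, an elongase of very long fatty acids and a marker of active brown fat, gave 188, 154 and 422 in WAT and 2279, 1822 and 2799 in BAT. Its highest WAT array was replicate 3, still well below the lowest BAT array (log2 difference 3.20, limma adjusted p = 4.78e-06). Dio2, the deiodinase that makes active thyroid hormone within the tissue, rose from 70.4, 58.2 and 181 in WAT to 899.7, 803 and 1255 in BAT (log2 difference 3.19, limma adjusted p = 9.75e-06). Kng2 (kininogen 2) at 3.16, Otop1 (a proton channel) at 3.14, Phospho1 (a phosphatase of phospholipid head groups) at 3.12, Acot11 (an acyl-CoA thioesterase) at 3.08 and Tuba8 (an alpha-tubulin) at 3.07 followed, all separated between the groups. Myh4, a fast myosin heavy chain, and Atp2a1, the calcium pump of fast muscle, completed the 10 largest at 3.18 and 3.10.

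Brown-fat thermogenic genes were higher in BAT as a group. Of 24 measured, 22 were called higher and 0 lower, with a median difference of 2.50. Ucp1 gave 2554, 2665 and 4449 in WAT and 10517, 10961 and 11114 in BAT. The groups did not overlap, and BAT stood above WAT by 1.80 ± 0.17 (SE, limma adjusted p = 6.34e-06), and its mean in WAT with Per2 was 6.05. Slc27a2, a transporter and activator of very long fatty acids, gave 314, 323 and 350.3 in WAT and 2674, 2609 and 2356 in BAT. Its arrays were tight within each group, and its difference was 2.89 ± 0.10 (SE, limma adjusted p = 2.79e-08). Plin5, a lipid droplet protein at mitochondrial contacts, rose by 2.59, and S100b, a calcium-binding protein also made by Schwann cells, by 2.21 (limma, adjusted p = 1.78e-07 and 2.96e-07). Fgf21 and Bmp8b, both secreted factors, were the members not called, at 0.34 (limma, adjusted p = 0.0926) and 0.35 (limma, adjusted p = 0.0583).

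Among 21 transcriptional regulators of brown fat, 13 were higher and 3 lower, with a median of 0.65. Cebpb, a transcription factor of adipocyte differentiation, gave 417, 383 and 597 in WAT and 1921, 1874 and 2044 in BAT, without overlap (log2 difference 2.05, limma adjusted p = 7.2e-07). Esrra, an orphan receptor that drives mitochondrial genes, gave 164, 179 and 234 in WAT and 688, 706 and 697 in BAT (log2 difference 1.79, limma adjusted p = 1.42e-06). Its relative Esrrg rose by 1.57 (limma, adjusted p = 2.52e-06), from 57.4 to 78.9 in WAT to 208 to 284 in BAT, and unlike most brown-fat genes its lowest WAT array was replicate 3. The coactivator Ppargc1a, named after its values were seen, gave 43.8, 55.4 and 107 in WAT and 309, 327 and 482 in BAT (2.24 without Per2 and 2.26 with it). Prdm16, also named after its values were seen, rose by 0.65, and Zic1 by 0.52. Plac8, at -4.58, Zfp516, at -1.03, and Ehmt1, at -0.38, were the 3 lower members.

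Of 14 markers of beige adipocytes, the brown-like cells of white depots, 4 were higher and 2 lower as deposited (median 0.13). Over all genes 20.2% were higher and 26.8% lower, so these markers were not called more often than genes at large. With median centring 8 were higher and 2 lower, and with quantile normalization 7 and 2. The purine receptor P2rx5 gave 40.8, 41.8 and 96.9 in WAT and 359, 456 and 401 in BAT (log2 difference 2.54, limma adjusted p = 4.05e-06). Slc36a2, an amino acid transporter, rose by 2.18 (limma, adjusted p = 3.56e-05). Both are also abundant in classical brown fat. Eva1c fell by 0.66 (limma, adjusted p = 0.000392), and Cited1, named after its values were seen, fell by 2.86. Tmem26 at 0.19, Tbx1 at -0.07 and Cd40 at 0.07 were not called.

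Genes of mitochondrial fuel use were nearly all higher in BAT. Of 22 genes of fatty acid oxidation, 21 were higher and 1 lower (median 1.85). Slc25a20, the carnitine carrier of the inner membrane, gave 698, 777 and 1315 in WAT and 4514, 4703 and 4689.5 in BAT, groups that lie far apart (log2 difference 2.35, limma adjusted p = 1.7e-06). Acadvl, which starts oxidation of very long acyl chains, rose by 2.24 (limma, adjusted p = 1.88e-06), and Acaa2, the last thiolase step, by 1.88 (limma, adjusted p = 9.63e-07). The lower gene was Cpt1a, at -2.08, which encodes the liver form of the carnitine transferase at the outer membrane.

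In the TCA cycle, 20 of 21 genes were higher and 0 lower (median 1.73). Suclg1, a subunit of succinyl-CoA ligase, gave 739, 774 and 1116 in WAT and 3568, 3964 and 3864 in BAT (log2 difference 2.12, limma adjusted p = 4.58e-07). Dlst and Dlat, core subunits of the oxoglutarate and pyruvate dehydrogenase complexes, rose by 1.93 and 2.11 (limma, adjusted p = 6.36e-07 and 1.57e-06). Pyruvate carboxylase (Pcx), which refills the cycle, was the member not called. Of 63 genes of the respiratory chain and ATP synthase, 61 were higher and 1 lower (median 1.55). Ndufv3, an accessory subunit of complex I, gave 348, 375 and 389.7 in WAT and 1228, 1341 and 1338 in BAT (log2 difference 1.77 ± 0.08 SE, limma adjusted p = 6.77e-08). Ndufs8, another complex I subunit, rose by 2.02, and Ndufa3 by 1.47 (limma, adjusted p = 4.58e-07 and 5.84e-07). The exceptions lay in ATP synthase: Atp5g1, a gene for its c subunit, was lower at -2.37, and Atp5g3, another gene for the same subunit, was not called at -0.04.

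Fuel supply and breakdown of amino acids followed. For breakdown of branched-chain amino acids, 19 of 21 genes were higher and 1 lower (median 1.18). Acad8, of valine breakdown, gave 499.7, 535 and 533 in WAT and 1059.6, 1056 and 1055 in BAT (log2 difference 0.99, limma adjusted p = 2.33e-06). Oxct1, which activates ketone bodies, rose by 1.56, and Auh, of leucine breakdown, by 1.38 (limma, adjusted p = 4.08e-06 and 1.4e-05). Bcat1, the cytosolic aminotransferase, was the lower member at -0.57. In glucose uptake and glycolysis, 14 of 18 genes were higher and 4 lower (median 1.20). Ldhb, a lactate dehydrogenase subunit, gave 542, 603 and 568 in WAT and 1915, 2052 and 2016 in BAT (log2 difference 1.78, limma adjusted p = 6.77e-08). Pgk1 and Pgam1, of the lower pathway, rose by 1.71 and 1.69 (limma, adjusted p = 4.69e-07 and 7.42e-07). The lower members were isoform genes: Aldoc at -2.32, Pfkfb4 at -1.42, Slc2a1 at -1.07 and Hk1 at -0.69, while Hk2 and Slc2a4 (GLUT4) rose by 1.11 and 1.67.

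De novo lipogenesis was higher in BAT as well, with 14 of 18 genes higher and 2 lower (median 0.99). The elongase Elovl6 gave 1717, 1594 and 1529.6 in WAT and 4927, 4688 and 5515 in BAT (log2 difference 1.63, limma adjusted p = 3.81e-07). Acacb, which makes the malonyl-CoA that regulates carnitine transfer, rose by 2.11, and Elovl5 by 1.06 (limma, adjusted p = 2.43e-05 and 1.51e-05). Scd2 at -1.44 and Pklr at -0.64 were lower. Srebf1, the sterol-regulated activator of the pathway, was not called at 0.01.

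For genes that all adipocytes share, the calls depended on replicate 3 of WAT. Of 26 general adipocyte genes, 11 were higher and 1 lower (median 0.46), against 22 higher and 1 lower without that array (median 0.74) and 18 and 1 with median centring. Over all genes 47.0% were called with all arrays, 20.2% higher and 26.8% lower. The general adipocyte genes were thus called at about the rate of genes at large, though mostly as higher. Their summed intensity was 58449, 59073 and 108756 in WAT and 101829 to 102737 in BAT, so replicate 3 alone reached the BAT level. Agpat2, of triglyceride synthesis, gave 2213, 2248 and 3997 in WAT and 8009.9, 7797 and 8249 in BAT, and was called with all arrays (log2 difference 1.56, limma adjusted p = 3.25e-05). Gpd1 rose by 1.61 and Slc2a4 by 1.67 (limma, adjusted p = 5.41e-05 and 0.000133). Adiponectin (Adipoq), at 2804, 2809.6 and 5919 in WAT and 3351, 3368 and 3047 in BAT, overlapped between the groups and was not called (-0.15, limma adjusted p = 0.633). The list of lipolysis and adrenergic signalling shares Pnpla2, Lipe, Mgll, Abhd5, G0s2, Plin1 and Aqp7 with the general list, and its calls depended on replicate 3 too. Here 8 of 16 genes were higher and 0 lower (median 0.47), against 14 higher without the array and 12 with median centring. Adcy3, an adenylyl cyclase, gave 215, 219 and 427 in WAT and 1854, 1752 and 1862 in BAT (log2 difference 2.67, limma adjusted p = 3.02e-06). Pde4d, a phosphodiesterase that ends the cAMP signal, rose by 2.56 (limma, adjusted p = 6e-07). Rgs2, a regulator of G-protein signalling, rose by 2.0 (limma, adjusted p = 0.000105), with BAT arrays from 471 to 1127.

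**Figure D2:**
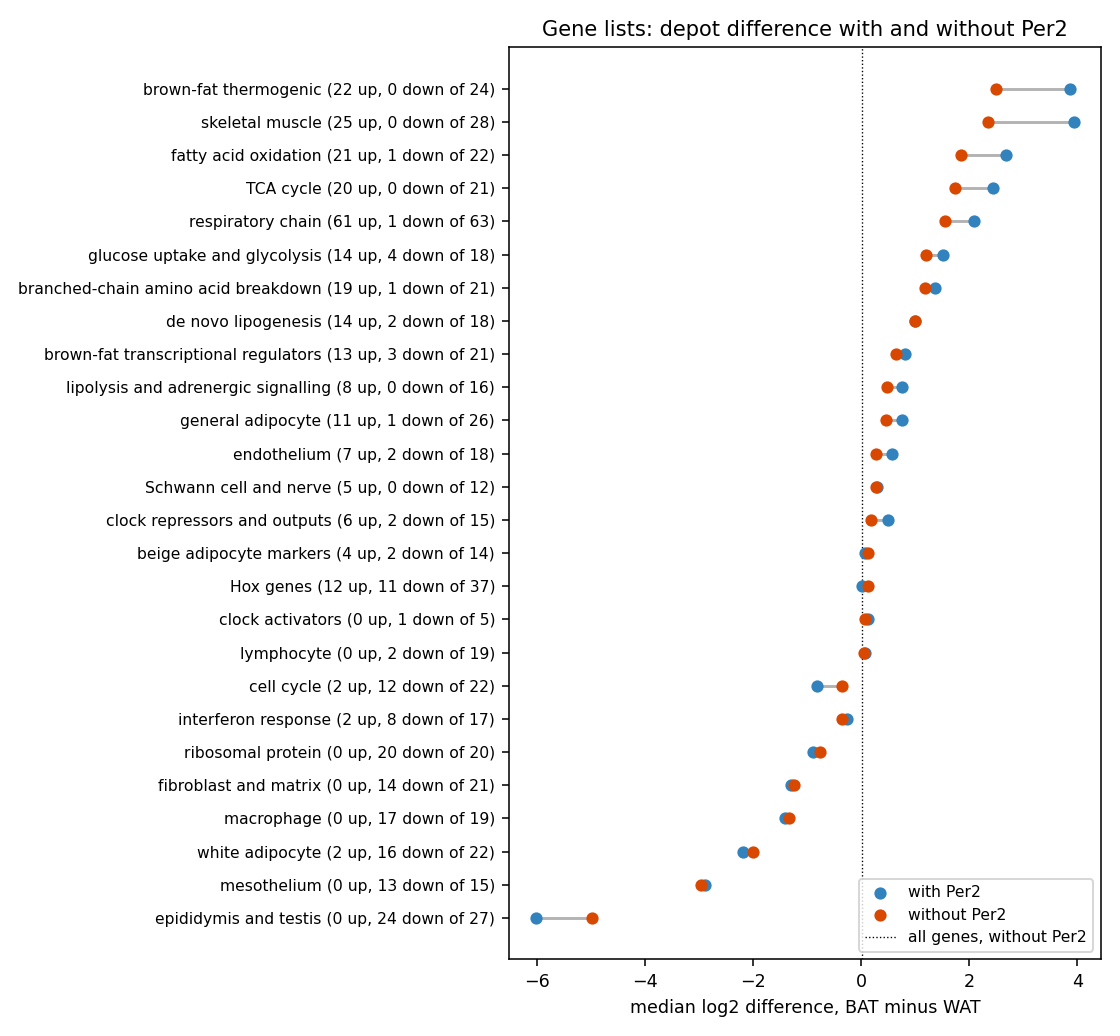
Median log2 difference, BAT minus WAT, of the 26 gene lists with at least 5 measured genes, with Per2 (blue) and without it (orange), where the dotted line marks the median of all genes without Per2 at 0.01 and the row labels count the members called higher (up) or lower (down) in BAT without Per2. Brown-fat thermogenic genes lie at 2.50 without and 3.86 with Per2, and epididymis and testis genes at -4.98 and -6.03.

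The largest falls in BAT reached log2 differences of -9.25 to -8.34, and 4 of the 10 genes (Gpx5, Lcn9, Lcn5 and Lcn8) are in the list of epididymis and testis genes. Defb48, a beta-defensin, gave 40271, 41111 and 7933 in WAT and 20.9, 27.4 and 20.5 in BAT, so its level in WAT replicate 3 was well below the other WAT arrays and still far above BAT (log2 difference -9.25 ± 0.48 SE, limma adjusted p = 1.57e-07). Slc38a5, an amino acid transporter, gave 155789, 169487 and 41032 in WAT and 193, 189 and 189 in BAT (log2 difference -8.96, limma adjusted p = 6.77e-08). The other 8 of the 10 largest falls ran from -8.81 to -8.34. They were Wfdc10, Teddm2, Cldn7 (a tight-junction protein), Epp13, Gpx5 (an epididymal glutathione peroxidase) and the lipocalins Lcn9, Lcn5 and Lcn8. In the list of epididymis and testis genes, 24 of 27 were lower in BAT and 0 higher, with a median of -4.98. Their summed intensity was 86346, 90521 and 25808 in WAT without Per2, 77351 to 83899.7 in WAT with Per2, and 343 to 640.1 in BAT of both genotypes. The sperm genes Prm1, Akap4 and Tnp1, at -0.35, -0.16 and 0.06, were the 3 not called. How much epididymis the WAT samples held was not tested. Mesothelium genes were lower in BAT for 13 of 15 (median -2.97), with sums of 6707 to 7955 in WAT and 662 to 765 in BAT. Upk1b, a uroplakin of mesothelium, gave 379.6, 418 and 459 in WAT and 5.12, 1.34 and 6.92 in BAT (log2 difference -4.42 ± 0.16 SE, limma adjusted p = 4.19e-08). Upk3b fell by 4.72 and the keratin Krt19 by 5.56 (limma, adjusted p = 2.81e-07 and 2.86e-07).

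White-adipocyte genes were lower in BAT, 16 of 22, with 2 higher and a median of -2.0. Agt, the precursor of angiotensin, gave 605, 687 and 731 in WAT and 31.6, 31.7 and 30.8 in BAT. The WAT arrays were all above 600 and the BAT arrays all near 31, and the difference was -3.86 ± 0.19 (SE, limma adjusted p = 1.35e-07). Nnat (neuronatin) gave 2751, 3096 and 6229 in WAT and 234, 128 and 96.5 in BAT (log2 difference -4.56, limma adjusted p = 8.49e-07). Psat1, of serine synthesis, fell by 3.28 (limma, adjusted p = 1.27e-07). Leptin (Lep), named after its values were seen, gave 674, 684 and 1895 in WAT and 80.7, 78 and 53.3 in BAT (log2 difference -3.51, limma adjusted p = 2.03e-05). The higher members were Tbx15 at 1.28, a T-box factor, and Adam12 at 1.58, a metalloprotease.

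Most macrophage and fibroblast markers were lower in BAT. Of 19 macrophage genes, 17 were lower and 0 higher (median -1.33), and 14 without WAT replicate 3. The list summed to 4805, 4271 and 8630 in WAT and 1565 to 2110.3 in BAT. Lysozyme 2 (Lyz2) gave 1235, 1123 and 2182 in WAT and 455, 405 and 345 in BAT (log2 difference -1.82, limma adjusted p = 3.83e-05). Itgam and Cd68, an integrin and a lysosomal protein of macrophages, fell by 1.74 and 1.55 (limma, adjusted p = 5e-05 and 4.22e-05). Fibroblast and matrix genes were lower for 14 of 21 and higher for 0 (median -1.24). Pdgfra, a receptor of fibroblasts and adipocyte progenitors, gave 762, 881 and 532 in WAT and 169, 137 and 122 in BAT (log2 difference -2.20, limma adjusted p = 2.91e-06). The matrix proteins Dcn and Fbln1 fell by 1.69 and 2.30 (limma, adjusted p = 7.35e-06 and 1.14e-05). All 20 ribosomal protein genes were lower in BAT as deposited (median -0.76). With median centring 16 of 20 were, and with quantile normalization 19. Rps4x gave 2050, 2159 and 1796 in WAT and 913, 886 and 865 in BAT (log2 difference -1.15, limma adjusted p = 5.18e-06), and Rpl6 and Rpl4 fell by 1.04 and 1.14 (limma, adjusted p = 9.69e-06 and 2.19e-05).

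Several lists changed their balance with scaling. Over all genes 20.2% were higher and 26.8% lower as deposited, and 9337 and 3391 of 19933 with median centring. Of 22 cell-cycle genes 2 were higher and 12 lower as deposited (median -0.36), 3 and 6 with median centring, and 0 and 10 without WAT replicate 3. Mcm6, a replication licensing subunit, gave 39.8, 47.4 and 55.7 in WAT and 10.4, 16.4 and 10.1 in BAT (log2 difference -1.17, limma adjusted p = 1.8e-05), and Top2a and Mcm4 fell by 1.17 and 0.78 (limma, adjusted p = 0.000147 and 0.000208). Among 17 interferon response genes 2 were higher and 8 lower (median -0.36), and 4 and 5 with median centring. Irf7 fell by 1.29, Oasl2 by 0.95 and Ddx58 by 0.75 (limma, adjusted p = 1.23e-05, 0.000124 and 0.00037). For 18 endothelial genes 7 were higher and 2 lower (median 0.28), 10 and 0 with median centring, and 13 and 2 without WAT replicate 3. Flt1, a receptor for vascular growth factor, gave 193, 213 and 332 in WAT and 432, 516 and 470 in BAT (log2 difference 0.93, limma adjusted p = 0.000556), Tek rose by 0.71 and Vwf fell by 0.74 (limma, adjusted p = 0.0169 and 0.00574). For 19 lymphocyte genes 0 were higher and 2 lower as deposited (median 0.05), 11 and 0 with median centring, and 0 and 1 without WAT replicate 3. The 2 lower genes were Jchain, of antibody joining, whose arrays overlapped between the depots (-1.05, limma adjusted p = 0.0394), and Klrb1c. Among 12 Schwann cell and nerve genes 5 were higher and 0 lower (median 0.28), 9 and 0 with median centring and 7 and 0 with quantile normalization, with Cdh19 at 0.98 and Mbp at 0.40 (limma, adjusted p = 8.72e-05 and 0.0249). Of 3 erythroid genes, Alas2 and Epb42 rose, by 1.04 and 0.38 (limma, adjusted p = 0.0116 and 0.0134).

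Hox genes, which record position along the body axis, split between the depots. Of 37 measured, 12 were higher in BAT and 11 lower (median 0.12), and all 11 lower ones but only 2 of the higher ones differed by 2-fold or more. Over all genes 20.2% were higher and 26.8% lower, and 4.57% and 10.1% at 2-fold or more. Hoxb6 gave 7544, 7816 and 1338 in WAT and 63.6, 77.1 and 70.5 in BAT, a wide gap in which WAT replicate 3 was again the lowest (log2 difference -5.64, limma adjusted p = 4.45e-06). Hoxc8 gave 514, 561 and 1132 in WAT and 129, 49.2 and 76.4 in BAT (log2 difference -2.88, limma adjusted p = 1.37e-05). Hoxa4 gave 69, 79.5 and 95.6 in WAT and 218, 226 and 258 in BAT (log2 difference 1.37, limma adjusted p = 6.4e-06), and its neighbour Hoxa5 rose by 1.01. The 11 lower genes lay in the B, C and D clusters, and both 2-fold higher ones in the A cluster. With median centring, 20 were higher and 11 lower.

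Clock genes were called at about the rate of all genes, 9 of the 20 on both clock lists against 47.0% overall. Of 15 clock repressors and outputs, 6 were higher and 2 lower (median 0.18), 7 and 1 without WAT replicate 3, and 9 and 1 with median centring. Usp2, a deubiquitinase with rhythmic expression, gave 295, 340.3 and 353 in WAT and 584, 637 and 609.8 in BAT (log2 difference 0.86, limma adjusted p = 1.92e-05). Hlf, a PAR-bZIP output factor, rose by 0.84 (limma, adjusted p = 0.000507). The repressor Bhlhe41 gave 656, 680.1 and 283 in WAT and 114, 106 and 104 in BAT (log2 difference -2.07, limma adjusted p = 0.000372). Of 5 clock activators 0 were higher and 1 was lower, Rora at -0.50 (limma, adjusted p = 0.0332), and the counts were 3 and 0 with median centring and 0 and 2 without WAT replicate 3. Because all mice were killed at a single time, a difference in level and a difference in phase cannot be told apart.

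Skeletal muscle genes were higher in BAT for 25 of 28, with 0 lower and a median of 2.34. Their summed intensity was 1625, 3151 and 2359 in WAT without Per2 and 8119, 25644 and 10706 in BAT without Per2, and it was 1092 to 1213 in WAT and 13824 to 56144 in BAT with Per2. Myh4 gave 43.5, 172 and 126 in WAT and 643, 1978 and 892 in BAT (log2 difference 3.18 ± 0.53 SE, limma adjusted p = 0.000428). Its wide spread within BAT, with replicate 2 the highest, was shared by Atp2a1, at 625, 2372 and 917. Titin (Ttn) rose by 2.73 and the light chain Myl1 by 2.24 (limma, adjusted p = 0.000269 and 0.00019). The slow-fibre genes Myh7, Tnni1 and Tnnt1, at 0.45, 0.33 and 0.05, were not called. How much muscle the BAT samples held was not tested.

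Most depot differences seen with Per2 were also there without it. With Per2, 10089 genes were called (50.6%), 4045 higher in BAT (20.3%) and 6044 lower (30.3%), and the arrays did not overlap for 25.9% of genes with BAT above and 34.9% with WAT above. Of the 4045 higher genes, 3000 (74.2%, or 15.1% of all genes) were called higher without Per2 as well, 1031 were not called and 14 were called lower. Of the 6044 lower genes, 4821 (79.8%, or 24.2% of all genes) were lower in both, 1212 were not called and 11 were called higher. The sign was kept by 98.1% of the higher and 97.2% of the lower genes. Counted from the other side, 74.6% of the genes called higher and 90.1% of those called lower without Per2 had the same call with Per2. Across all genes the depot differences of the genotypes, which share no arrays, correlated at a Pearson r of 0.951, or 0.955 without WAT replicate 3. The points are genes of the same 12 arrays and not independent. A further 1010 genes were called higher and 517 lower only without Per2, of which 5 and 3 passed the test of the difference between the genotypes.

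The genes with the largest difference held in both genotypes follow, 6 in each direction. Among those higher in BAT, Dio2 was 3.19 without and 4.48 with Per2, Elovl3 3.20 and 5.83, Kng2 3.16 and 4.97, Otop1 3.14 and 5.97, Phospho1 3.12 and 4.90, and Myh4 3.18 and 6.69. Each of these differences was larger with Per2, and for Elovl3, Otop1, Kng2 and Phospho1 the test of the difference passed (limma, adjusted p = 0.0147, 0.000576, 0.00987 and 0.00228). Among those lower in BAT, Defb48 was -9.25 without and -10.57 with Per2, Slc38a5 -8.96 and -10, Wfdc10 -8.81 and -9.30, Teddm2 -8.67 and -9.29, Lcn9 -8.46 and -8.39, and Lcn8 -8.37 and -8.56. None of these 6 passed the test of the difference (limma, adjusted p = 0.591 to 0.985). Other named genes had closer values in the genotypes. Elovl6 was 1.63 without and 1.62 with Per2, Rgs2 2.0 and 2.04, Ldhb 1.78 and 1.82, Cebpb 2.05 and 2.30, Esrrg 1.57 and 1.33, Pdgfra -2.20 and -2.33, Upk3b -4.72 and -4.56, and Rps4x -1.15 and -1.18. For Elovl6 the difference between the genotypes was 0.02 ± 0.14 (SE), and for Esrrg 0.24 ± 0.18.

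Differences tended to be smaller without Per2, most of all for genes that were very high in BAT. Among the 1125 genes (5.64%) called at least 2-fold higher in BAT with Per2, the difference without Per2 was a median of 0.766 of that with Per2, with the quartiles at 0.674 and 0.864. For the 2410 genes (12.1%) at least 2-fold lower, the median was 0.843 (0.722 to 0.951). Picking genes by their size in 1 genotype favours a smaller value in the other, so the reverse was also taken. Among genes at least 2-fold higher or lower without Per2, the difference with Per2 was 1.22 and 1.12 times as large in the median. By size with Per2, genes higher in BAT had a median ratio of 0.798 for log2 differences from 1 to 2, 0.729 from 2 to 4, and 0.532 for the 30 genes above 4. Genes lower in BAT had 0.839, 0.827 and 0.875, with 245 genes in the last class. Without WAT replicate 3 the ratios were 0.911, 0.815 and 0.556 for higher genes and 0.924, 0.955 and 1.01 for lower ones, so the 30 genes still had the lowest ratio. The reverse was not taken by size class. All 30 were called higher in BAT without Per2 too, and 14 passed the test of the difference. By the lists, 11 of the 30 are brown-fat thermogenic genes, 13 are skeletal muscle genes and 1 is Adcy3, and the other 5 are Adtrp, Ampd1, Kng2, Phospho1 and Tuba8. Of the skeletal muscle genes 0 passed that test.

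**Figure D3:**
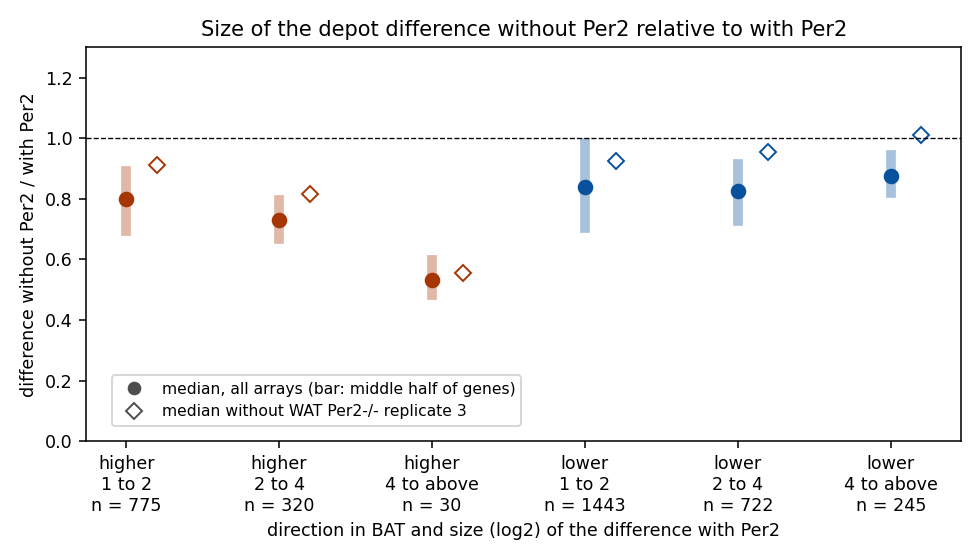
Ratio of the depot difference without Per2 to that with Per2 (both log2) for genes called at least 2-fold with Per2, by direction in BAT and size class, where filled circles are medians over all arrays, bars span the quartiles and open diamonds are medians without WAT Per2-/- replicate 3. The ratio is lowest, 0.532, for the 30 genes more than 4 log2 units higher in BAT.

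The level of these genes in WAT was examined as a share of BAT, a measure chosen after their values were seen and given without a test. With Per2, WAT held a median of 2.84% of the BAT level over the 24 brown-fat thermogenic genes, from 0.0561% for Ucp1 to 64.9% for Bmp8b. Without Per2 the median was 15.9%, and the lowest share was 10.4%, for Ckmt2. Ucp1 had 29.7%, Cidea 20.4%, Cox8b 16.1%, Fabp3 12.5%, Elovl3 11.1% and Otop1 10.8%. Over skeletal muscle genes the median share was 2.2% with Per2 and 12.3% without it, and the lowest 0.122% and 9.47%. The muscle share rests on BAT sums that varied widely, unlike those of the brown-fat list. They were 13824, 23859 and 56144 with Per2, and 8119, 25644 and 10706 without it. The muscle sums in WAT were 1092 to 1213 with Per2 and 1625 to 3151 without it. The arrays differed between the lists. Against the mean of BAT, the median share over brown-fat genes was 12.3%, 13.2% and 22% on WAT replicates 1, 2 and 3, and over muscle genes 7.47%, 17.7% and 13.2%. Among all genes with a BAT mean of 200 or more, 6 of 5205 had a WAT level under 10% of BAT without Per2, namely Gldn, Myh1, Myh4, Pvalb, Serpina12 and Ttn, against 92 of 5123 with Per2. In the other direction, among genes with a WAT mean of 200 or more, 362 of 6070 had a BAT level under 10% of WAT without Per2 and 460 of 5982 with it. Summed intensity of the brown-fat list was 9825, 10142 and 16606 in WAT without Per2 and 2024 to 2079.8 in WAT with Per2, while BAT had 57954 to 61749 and 53808 to 58469. Whether WAT samples without Per2 held RNA of brown fat or of muscle was not tested.

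The test of the difference between the genotypes' depot differences called 118 genes (0.592%), 63 with a more positive BAT minus WAT value without Per2 (0.316%) and 55 with a more negative one (0.276%). At an unadjusted p under 0.05 there were 1885. Without WAT replicate 3 the test called 372 genes, 194 positive and 178 negative, among them all 118. Other arrays lowered the count when left out: it was 65, 59 and 68 on leaving out replicate 1, 2 or 3 of per2-/- BAT, 72, 71 and 59 for those of per2+/+ WAT, and 76 for replicate 1 of per2+/+ BAT. Of the 55 negative genes 50 were higher in BAT with Per2 (20.3% of all genes), and 45 had a smaller difference without it. Of the 63 positive genes 57 were lower in BAT with Per2 (30.3% of all genes), and 54 had a smaller difference without it. Picking genes by the sign of this contrast favours these directions and smaller sizes, so the counts are not a separate result.

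**Figure D4:**
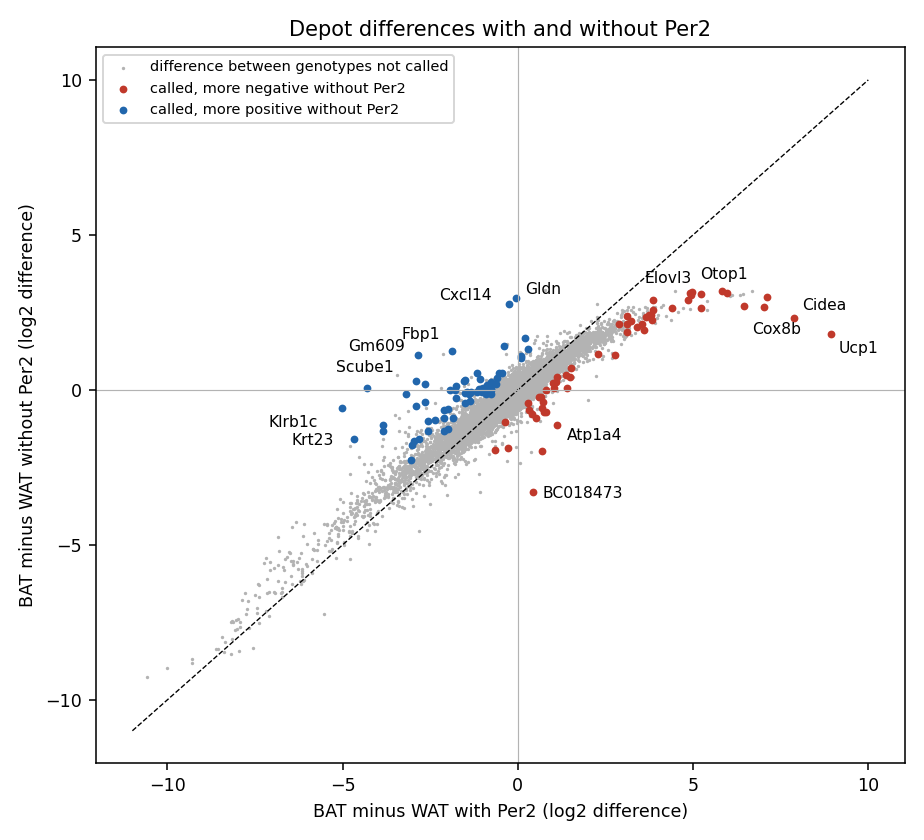
Log2 difference, BAT minus WAT, of 19933 genes with Per2 (horizontal) and without it (vertical), where the dashed line marks equal differences and coloured points are the 118 genes called for the difference between the genotypes (55 red, more negative without Per2, 63 blue, more positive). Ucp1 lies at 8.94 and 1.80, and no gene exceeds 3.22 without Per2.

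The negative genes were led by brown-fat genes. Ucp1 was 8.94 with Per2 and 1.80 without, a difference of -7.14 ± 0.24 (SE, limma adjusted p = 5.62e-08). Its BAT means were alike, 10796 with Per2 and 10517 to 11114 on the arrays without it, and its WAT level moved from a mean of 6.05 to between 2554 and 4449. Cidea, a lipid droplet protein, gave 1114, 1051 and 1822 in WAT and 6415, 6414 and 6759 in BAT without Per2, and means of 10.3 and 6203 with it (difference -5.56, limma adjusted p = 4.44e-07). Cox8b and Cox7a1, subunits of cytochrome c oxidase found in muscle and brown fat, followed at -4.36 and -3.73, and Fabp3, a fatty acid binding protein, at -4.10 (limma, adjusted p = 5.29e-05, 1.2e-05 and 3.48e-05). Over all genes 8752 of 19933 were below 0 for this contrast, and 0.276% passed with a negative value. In the thermogenic list all 24 members were below 0 and 13 passed the test. Ppargc1a, at -0.02, and Fgf21 and Bmp8b were among the 11 that did not. In fatty acid oxidation 5 of 22 passed (12 without WAT replicate 3), led by Hadhb at -1.68 and Acaa2 at -1.22 (limma, adjusted p = 0.00517 and 0.0147). In the TCA cycle 2 of 21 passed, Sucla2 at -1.39 and Suclg1 at -0.99 (limma, adjusted p = 0.0227 and 0.0445), and 11 did without that array. In the respiratory chain 0 of 63 passed in limma, though 62 were below 0, and 8 passed without that array. For skeletal muscle 0 of 28 passed, with 27 below 0, and 0 passed without that array. BC018473, the last of the 6 most negative genes, was of another kind, with 2997, 2487 and 579.6 in WAT and 140.1, 161 and 157 in BAT without Per2, and means of 3.6 and 9.9 with it. Its depot difference was -3.29 without Per2 and 0.42 with it (difference -3.71, limma adjusted p = 0.0348). Rsad2, an interferon-induced antiviral gene, rose in BAT by 0.41 without and 1.49 with Per2 (difference -1.08, limma adjusted p = 0.00379).

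**Figure D5:**
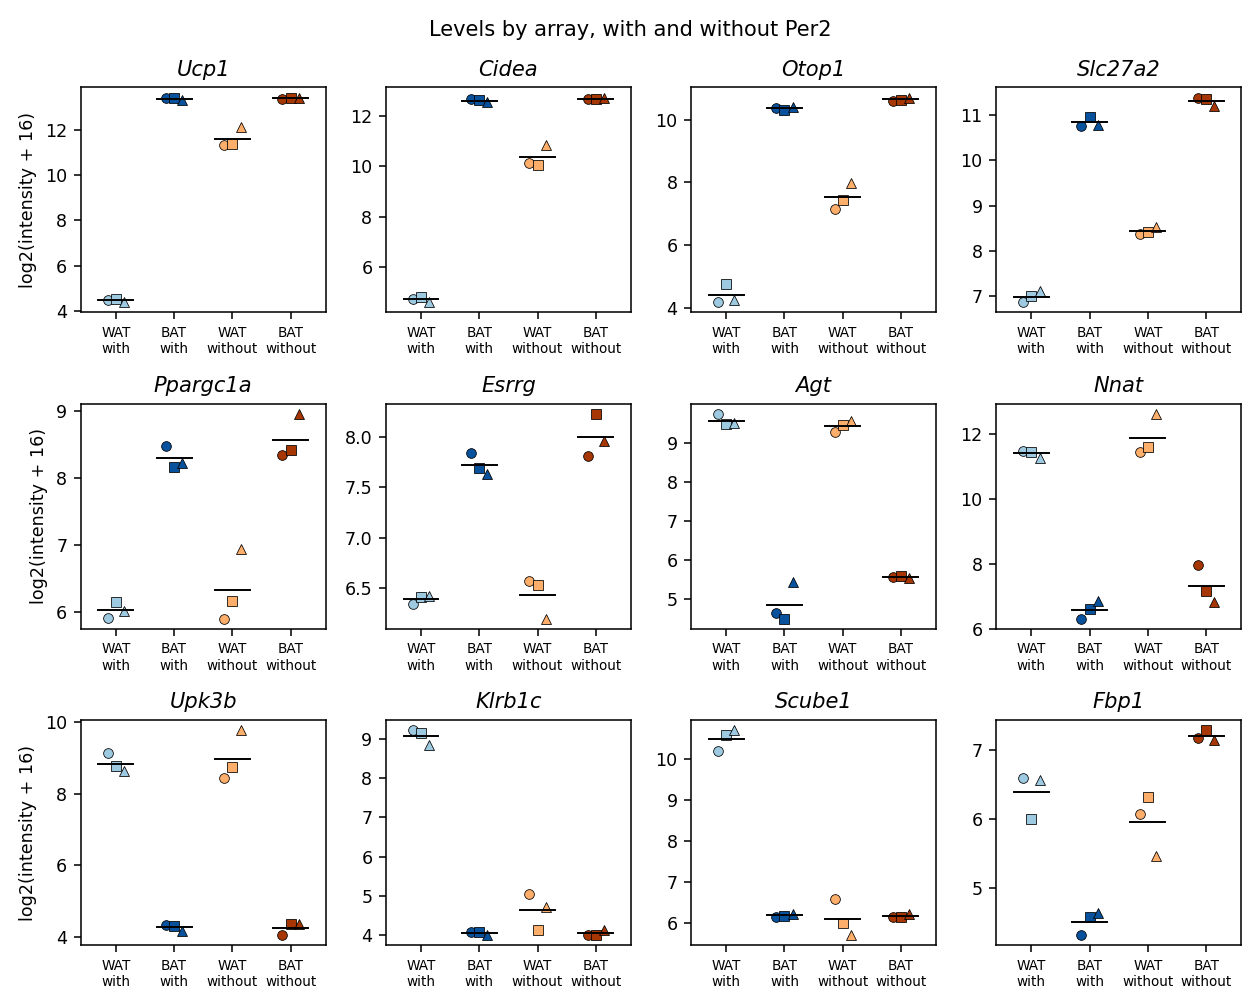
Levels of 12 genes, as log2(intensity + 16), on each of the 12 arrays, by tissue (WAT, BAT) and genotype (with or without Per2), with circle, square and triangle for replicates 1, 2 and 3 and a line at the mean of each group. Ucp1, Cidea and Otop1 have like BAT levels in the genotypes and higher WAT levels without Per2, Agt, Nnat and Upk3b are high in WAT of both, and Klrb1c and Scube1 are high in WAT with Per2 alone.

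Among the 6 most positive genes all but Fbp1 were high in WAT with Per2 and far lower there without it. Over all 63, the genotypes differed in WAT for 42 and in BAT for 26 at a limma adjusted p under 0.05. The contrast that picked these genes is made of the same genotype differences, which favours such calls. The share over all genes is not given here. Klrb1c, a receptor of natural killer cells, gave 17.2, 1.48 and 10.2 in WAT and at most 1.59 in BAT without Per2, and means of 525 and 0.58 with it. Its depot difference was -0.58 without and -5.02 with Per2 (difference 4.44 ± 0.27 SE, limma adjusted p = 9.08e-06). Scube1, a secreted and cell-surface glycoprotein, gave 79.4, 47.7 and 35.9 in WAT and 54.1, 54.3 and 57.5 in BAT without Per2, groups that overlap, and means of 1431 and 56.4 with it (difference 4.37, limma adjusted p = 9.09e-06). Another natural killer receptor, Ncr1, gave 12.5, 11.9 and 11.5 in WAT without Per2 and a mean of 16.6 with it, and its difference of 0.11 did not pass (limma, adjusted p = 0.852). Gm609 and 9230020A06Rik, which have no role given here, were 3.97 and 3.20 (limma, adjusted p = 9.08e-06 and 2.56e-05). Their WAT means were 321 and 196 with Per2, against 2.55 to 4.4 and 5.75 to 6.26 on the arrays without it. Krt23, a keratin, was 3.09 and only just passed (limma, adjusted p = 0.0498). Fbp1, the gluconeogenic fructose bisphosphatase, differed in BAT: it gave 51, 64.1 and 28.1 in WAT and 128, 139.8 and 125 in BAT without Per2, and means of 69 and 6.98 with it (difference 3.12, limma adjusted p = 0.000405).

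In 25 genes the depots were called in opposite directions. Of the 14 higher in BAT with Per2 and lower without it, 9 passed the test of the difference. Of the 11 that went the other way, 7 did. The 4 with the largest differences on both sides were Gm609, Fbp1, Atp1a4 and Rnf150. Gm609 was higher in BAT by 1.13 without Per2 and lower by a log2 difference of -2.84 with it, and Fbp1 was 1.25 and -1.87. Atp1a4, a sodium pump subunit known from testis, gave 1250.1, 1309 and 3014 in WAT and 714, 809 and 785 in BAT without Per2, so WAT was the higher depot, while its means with Per2 were 321 and 718. Its difference was -1.13 without and 1.12 with Per2 (difference -2.26, limma adjusted p = 0.0169). Rnf150, a RING finger protein, was -0.71 and 0.74 (difference -1.45, limma adjusted p = 0.0498). Gldn and Cxcl14, named after their values were seen, were called without Per2 alone and passed the test of the difference. Cxcl14, a chemokine, gave 164, 209 and 303 in WAT and 1313, 1748 and 1762 in BAT without Per2, and means of 147 and 123 with it, so its depot difference was 2.78 without and -0.24 with Per2 (difference 3.02, limma adjusted p = 0.000248). Gldn (gliomedin) gave 35.6, 44.1 and 63.9 in WAT and 422, 522 and 493 in BAT without Per2 (2.97 without and -0.06 with Per2, limma adjusted p of the difference = 0.000106).

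The oxidative genes that separate the depots are known targets of the ERR and PPAR nuclear receptors, so the promoters in RefSeq (build GRCm38.p6, 250 bases before to 50 after each start site) were searched on both strands. The ERR letters were TCAAGGTCA and the PPAR letters were AGGTCA, any base and AGGTCA again, so the motifs share AGGTCA and can overlap. The ERR letters stood in 54 of 15609 promoters of measured genes (0.346%) and the PPAR letters in 8 (0.0513%). In the lists, the ERR letters were in 0 of 20 thermogenic, 0 of 20 fatty acid oxidation, 1 of 19 TCA cycle (Sdhd, past the start site) and 1 of 53 respiratory chain promoters, and the PPAR letters were in 0 of these. The respiratory chain match was in Atp5g3, on the minus strand at chr2:73911350-73911398. It is shown, with the motif in capitals as it reads on the other strand, because this gene was the member of the list not called in either direction (-0.04 without and -0.03 with Per2).
Atp5g3: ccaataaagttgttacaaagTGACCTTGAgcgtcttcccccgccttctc
Sdhd, the other match, rose in BAT by 1.87 without and 2.58 with Per2. A match to these letters is a description of the sequence and not a binding site.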

How the data were processed

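Per the labels, total RNA of each tissue was labelled with biotin and hybridised to 1 Affymetrix array per sample, with 3 biological replicates in each of 4 groups. The deposited intensity values are on a linear scale and, per the submitters' processing notes, come from PLIER; neither its version nor a scaling step between arrays is recorded in what was read here. Per the file headers, each p-value of the authors comes from Cyber-T 8.01 (hdarray 3.71, R 2.2.1), a regularized t test, on linear and on log values and without adjustment. The authors' deposited score is a signed fold of group means, which was not used. Arrays have no read depth, and their number limits the precision: the median SE of a depot difference without Per2 was 0.127.

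Of 35557 transcripts, 21776 were tested by the authors and name 1 gene in the platform annotation, and where 993 genes had several, the brightest on average was kept (19933 genes). A constant of 16 was added, log2 taken, and 4 group means fitted over all 12 arrays with limma 3.58.1 in R 4.3.3 (8 residual and 3.51 prior degrees of freedom). The contrasts were BAT minus WAT without Per2, the same with Per2, and their difference, each adjusted by Benjamini-Hochberg over 19933 genes and called under 0.05. The fit was also run on simulated data in which few genes differed and each gene had equal spread on every array. The real arrays are unlike that, so the run does not check the calls made here. Whether replicate numbers pair the samples is not stated. Deviations of same-numbered WAT and BAT arrays from their group means correlated at -0.119 to 0.0746, which with so few arrays cannot decide it. No block was used in the main fit.

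The members, the 27 gene lists (550 genes measured) and the tests were chosen with earlier results of these data known, and the lists were written from general knowledge. Genes named by rule were Per2, the 10 largest rises and 10 largest falls without overlap, the 6 largest in each direction called in both genotypes, the 6 most positive and 6 most negative for the difference, the 4 largest opposite calls, and in each list up to 3 with the smallest p and up to 2 called for the difference. Other list members named with a value are examples chosen after their values were seen. Alternatives were other constants, scalings, variance models, array weights, a replicate block, fewer genes or arrays, all transcripts, the authors' p-values and a fold threshold.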

Additional observations from a re-analysis of the deposited data

Results flagged for a closer look

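The depot difference, BAT minus WAT, differed between mice without and with Per2 in a test of that difference (limma, adjusted p under 0.05) for 118 genes. The values that follow are log2 differences without Per2 minus those with Per2, for the genes named in the text. The lowest were -7.14 for Ucp1, -5.56 for Cidea, -4.36 for Cox8b, -4.10 for Fabp3, -3.73 for Cox7a1 and -3.71 for BC018473. Other genes high in brown fat were Otop1 at -2.83, Elovl3 at -2.63, Acot11 at -2.17, Tuba8 at -1.86, Kng2 at -1.81, Phospho1 at -1.78, Plin5 at -1.28 and Slc27a2 at -0.97. In fatty acid oxidation, Hadhb was at -1.68, Acadvl at -1.58, Slc25a20 at -1.30 and Acaa2 at -1.22. In the TCA cycle, Sucla2 was at -1.39 and Suclg1 at -0.99. The interferon-induced Rsad2 was at -1.08, and Atp1a4 and Rnf150, called in opposite directions in the genotypes, were at -2.26 and -1.45. The highest were 4.44 for Klrb1c, 4.37 for Scube1, 3.97 for Gm609, 3.20 for 9230020A06Rik, 3.12 for Fbp1 and 3.09 for Krt23. Cxcl14 and Gldn, named after their values were seen, were at 3.02 and 3.03. Without replicate 3 of WAT without Per2 all 118 passed, Ucp1 at -6.89 and Klrb1c at 4.48, while leaving out other arrays lowered the count to as few as 59 and the replicate block lowered it to 55.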

How the results depend on the processing

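No value of a named gene changed sign in the alternatives run while called in either fit. The authors' p-values and the fold threshold were set on the main log2 differences, so no sign could change there. For the depot difference without Per2, 2677 of 2754 values of 111 named genes kept their side of the threshold, 65 (20 genes) no longer passed and 12 (3 genes) newly passed. For the difference between genotypes, 118 of 632 values (15 of 29 genes) no longer passed. Median centring gave 9337 genes higher and 3391 lower in BAT without Per2, and 7935 higher and 3020 lower in both genotypes. Quantile normalization gave 6417 higher without Per2 and 5325 higher in both. Asking for 2-fold as well left 2927 genes without Per2 (911 higher, 2016 lower), and 827 higher and 1864 lower in both. For the difference between genotypes, array weights called 439 genes (241 positive, 198 negative), and brighter genes only 73 (30 positive). With the replicate block it called 55 (29 positive, 26 negative), and the depot difference without Per2 called 8472. Whether the replicate numbers pair the samples is not stated, and not every array correlated best with its own number. Leaving out 1 array at a time gave 59 to 372 genes, 37 to 194 positive and 22 to 178 negative, the most without replicate 3 of WAT without Per2 and 59 both without replicate 2 of BAT without Per2 and without replicate 3 of WAT with Per2. The cause of these changes was not tested. The authors' p-values, adjusted likewise, called 8096 genes on log and 8240 on linear values; they exist for the depot comparisons and not for the difference between genotypes. The fit of only the 6 arrays compared (8108 calls) was not run for that difference. With 3 arrays a group, the median SE of 0.127 sets the smallest differences that could pass, and genes near background have compressed differences.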
